A study of Mus musculus with 45 samples.

Results

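Binding of the nuclear receptor REV-ERBα was examined at 9 mouse liver genes that encode secreted metabolic signals, their binding proteins and a receptor: Fgf21, Gdf15, Inhbe, Agt, Igfbp1, Igfbp2, Igfbp4, Fst and Lepr. The genes were chosen by name, with earlier results of these data known. Their sites are the chromatin immunoprecipitation (ChIP-seq) peaks whose summit lies inside the gene's mm10 span or within 50 kb of it. At zeitgeber time 10 (ZT10, hour 10 of the light-dark cycle) 49 of 27929 peaks met this rule, and at ZT22 0 of 36 did. The 9 genes stand among 21631 that encode proteins and lie on an autosome or the X chromosome.

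Livers came from mice of genotype REV-ERBa3HA/3HA, in which the endogenous receptor carries an HA tag, and neither group had received an AAV vector. Anti-HA beads were used on 4 samples at ZT10 and 4 at ZT22, and each time has a single peak list made from the pool of its 4 samples, so there is no spread between replicates and no p-value between the times. The other 37 of the series' 45 samples (histone marks, NCOR1, input, untagged liver and AAV-treated livers) were not analysed here, so the share of signal that depends on the tag was not tested. Strain, sex and age of the mice are not given in the sources used here. Fixed nuclei of whole liver were used, so binding in more cells and more binding per cell cannot be told apart. Genes that mark hepatocytes (Alb, Apoa1, Apob, Ttr, Serpina1a, Cps1, Tat and Hnf4a) had a ZT10 site within the same reach at 8 of 8, and markers of Kupffer cells, the liver's macrophages, at 0 of 4. Stellate markers had one at 2 of 4, endothelial markers at 3 of 4 and cholangiocyte markers at 2 of 4. Each count can be read against the 70.5% of all protein-coding genes with such a site, and the lists are short. These values describe binding, not expression.

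REV-ERBα represses transcription by bringing the NCOR corepressor and the deacetylase HDAC3 to DNA, and its abundance in mouse liver rises during the light phase and falls at night. It binds the hexamer AGGTCA with an A/T-rich stretch before it, or a pair of such hexamers. Hepatokines are proteins that the liver secretes to act on other tissues: FGF21 and GDF15 are stress hormones of fasting and nutrient imbalance, activin E (Inhbe) acts on adipose tissue, and angiotensinogen (Agt) is the precursor of the angiotensins. IGF binding proteins carry insulin-like growth factors in blood and limit their access to receptors, and follistatin (Fst) binds and neutralises activins. Lepr encodes the leptin receptor, which also circulates as a soluble form.

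Promoter windows from RefSeq (build GRCm38.p6, which shares its chromosome coordinates with mm10) run from 250 bases before to 50 after an annotated start. Of the 9 genes 8 have such a window, and Fst has none in the table. A ZT10 peak covered a window of 7 of these 8 (Lepr was the exception), where 39.1% of 17274 protein-coding genes with a window had one covered. A summit lay in a window at Fgf21 alone, where 12.7% of genes had one. Shown 5′ to 3′ are the Fgf21 window, which holds the summit, the Igfbp2 window, which lies closest to a summit among the others, both Gdf15 windows, and the Igfbp1 window, which lies under the widest peak of the set. Capitals mark every match of AGGTCA or CACGTG on either strand, and a window with no capitals has no match.
Fgf21, chr7:45615441-45615740, minus strand: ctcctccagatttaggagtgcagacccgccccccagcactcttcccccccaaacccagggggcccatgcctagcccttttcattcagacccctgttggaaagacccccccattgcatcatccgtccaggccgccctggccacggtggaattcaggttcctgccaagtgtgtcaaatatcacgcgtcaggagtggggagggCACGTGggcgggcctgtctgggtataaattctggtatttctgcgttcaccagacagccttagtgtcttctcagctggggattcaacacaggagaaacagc
Igfbp2, chr1:72824230-72824529, plus strand: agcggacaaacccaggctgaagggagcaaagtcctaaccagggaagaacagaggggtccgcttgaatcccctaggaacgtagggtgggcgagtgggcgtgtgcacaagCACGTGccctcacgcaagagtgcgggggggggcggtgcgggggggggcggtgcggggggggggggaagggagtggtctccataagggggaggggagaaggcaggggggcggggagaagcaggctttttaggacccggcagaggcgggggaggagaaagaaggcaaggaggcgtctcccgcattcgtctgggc
Gdf15 upstream start, chr8:70632407-70632706, minus strand: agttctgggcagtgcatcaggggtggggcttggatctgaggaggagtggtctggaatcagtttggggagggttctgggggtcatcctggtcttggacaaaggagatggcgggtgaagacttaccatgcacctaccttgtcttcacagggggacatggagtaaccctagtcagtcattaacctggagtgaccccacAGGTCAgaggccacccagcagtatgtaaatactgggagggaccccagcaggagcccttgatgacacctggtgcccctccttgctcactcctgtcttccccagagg
Gdf15 downstream start, chr8:70632046-70632345, minus strand: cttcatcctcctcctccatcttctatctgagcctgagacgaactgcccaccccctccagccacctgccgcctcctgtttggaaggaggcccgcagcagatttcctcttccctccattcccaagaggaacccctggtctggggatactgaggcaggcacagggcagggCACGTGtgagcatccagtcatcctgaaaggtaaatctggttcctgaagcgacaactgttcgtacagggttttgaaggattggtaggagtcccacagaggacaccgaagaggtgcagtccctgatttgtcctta
Igfbp1, chr11:7197537-7197836, plus strand: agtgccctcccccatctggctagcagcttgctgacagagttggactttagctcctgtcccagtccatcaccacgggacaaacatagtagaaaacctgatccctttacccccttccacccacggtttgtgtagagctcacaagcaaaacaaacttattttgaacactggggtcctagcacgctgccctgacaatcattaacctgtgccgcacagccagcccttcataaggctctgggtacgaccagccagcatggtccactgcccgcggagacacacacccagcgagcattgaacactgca

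The REV-ERBα hexamer AGGTCA was found in 1 of the 11 windows of these genes, the upstream window of Gdf15, where it starts at base 196. Of all 32851 windows, 16.3% held it on either strand. The hexamer directly preceded by AANT, and a direct repeat of the hexamer with NN between its copies, where N is any base, were searched on both strands and were in 0 of the 11 windows and in 0.219% and 0.00913% of all windows. The E-box CACGTG, a palindrome bound by the clock activators CLOCK and BMAL1, was in 3 of the 11 (Fgf21 from base 201, Igfbp2 from base 109, the downstream Gdf15 window from base 168) and in 7.15% of all windows. This motif was added after the sequences were seen. At Fgf21 the summit fell on base 151 of the window. Apart from it no window holds a summit, so the letters under the other summits were not searched.

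All 9 genes had a ZT10 site, where 70.5% of protein-coding genes did (15244 of 21631). Sites numbered from 2 (Fst, Igfbp1) to 11 (Gdf15) with a median of 5. The median over all protein-coding genes was 2, and over those with a site it was 4. Long genes have wider windows, and per 100 kb of window searched the medians were 3.9 sites for the 9 genes and 1.6 for all. Of the 49 sites, 8 lay inside the named gene, 15 inside another protein-coding gene and 26 outside any, so 46.9% were inside a gene span against 59.4% of all ZT10 peaks. For 23 sites the named gene was the nearest, and for 26 another gene was nearer. These groups had similar median folds over the local background, 8.83 and 8.76, and the median of all ZT10 peaks was 6.81. Strand, where the promoter table gives it, put 25 sites before the start of the gene and 14 past its end.

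**Figure D1:**
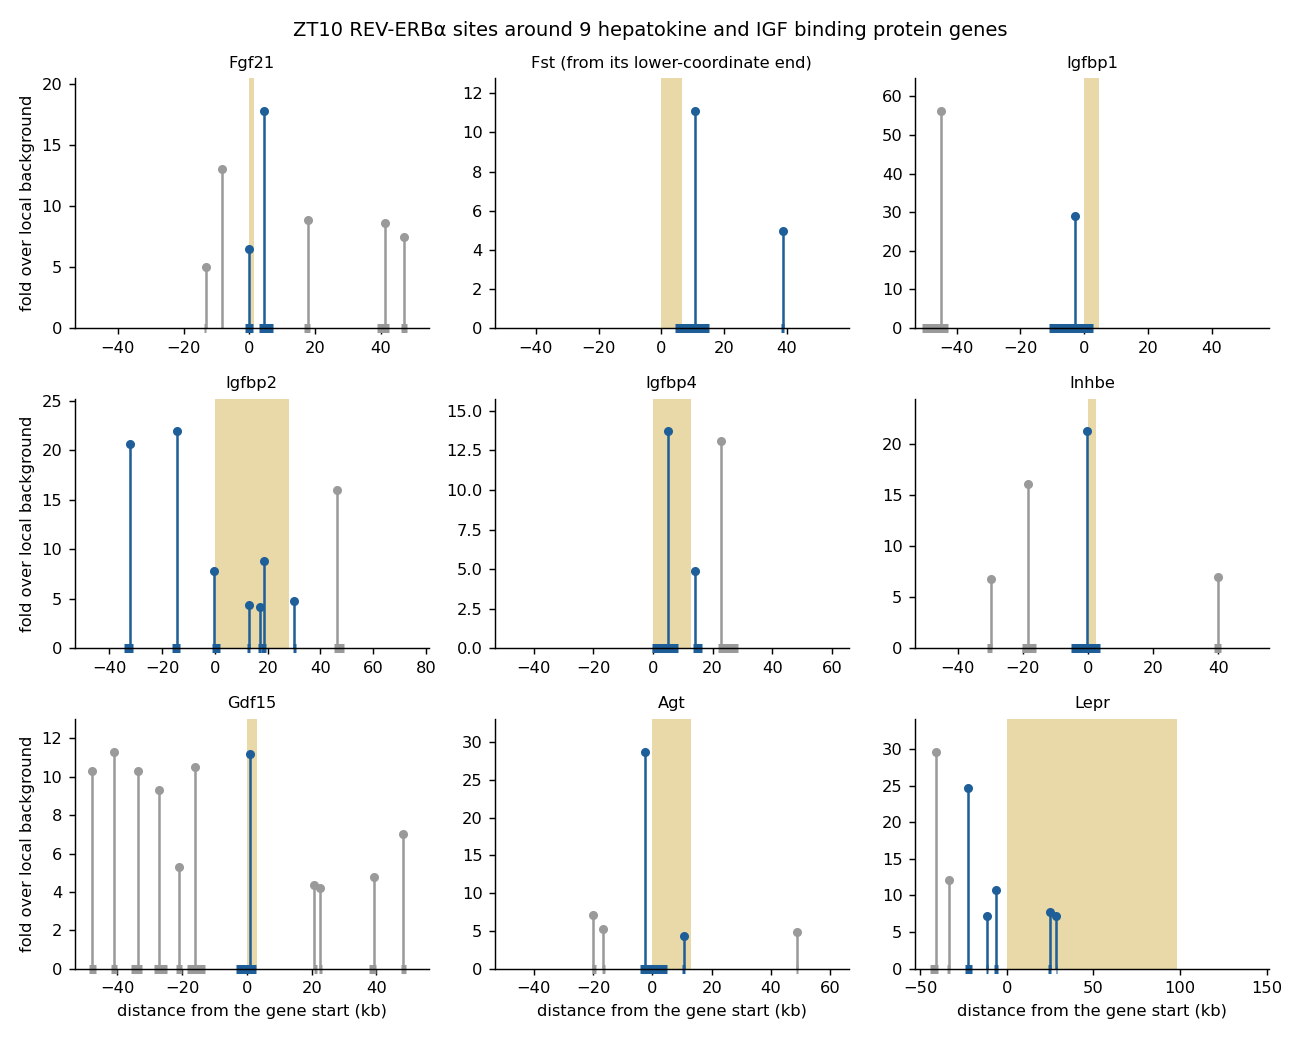
Sites at ZT10 around each of the 9 genes: the horizontal axis is the distance in kb from the gene's start in the direction of transcription (for Fst, from its lower-coordinate end), the height is the fold over local background, and the thick bar on the axis is the peak's width. The shaded band is the gene span; blue sites have the named gene as the nearest, grey ones another gene. Lepr has no site beyond 28606 bp from the start of its span, and Gdf15 has 11 sites of which 1 is blue.

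Within 10 kb, 9 of 9 genes still had a site, where 54.5% of protein-coding genes did. The strongest site of each gene within 50 kb was above the median of its kind. The median of the 9 strongest folds was 21.2, the median over the 15244 genes with a site was 10.0, and 9 of 9 lay above that value. With a reach of 10 kb the corresponding medians were 13.7 for the 9 genes and 7.82 for all genes with a site in that reach. A site of fold 20 or more was near 5 of the 9 (Igfbp1, Lepr, Agt, Igfbp2 and Inhbe), where 8.98% of protein-coding genes had one. These were 8 of the 49 sites, where 4.72% of all ZT10 peaks had such a fold. The hepatocyte markers named above had a site of fold 20 or more at 4 of 8. Their median strongest fold within 50 kb was 20.7 and their median number of sites was 7. Strong and numerous sites are thus not particular to the 9 genes. The depth of the pooled library makes the summit counts large: the pileup values are multiples of a fixed step, which gave the number of fragments at each summit. Intervals below are exact 95% Poisson intervals of those counts and cover counting error only. In order, the strongest sites had 1220 fragments near Igfbp1 (1152 to 1290), 640 near Lepr (591 to 692), 620 at Agt (572 to 671), 472 at Igfbp2 (430 to 517) and 457 at Inhbe (416 to 501). Fgf21 followed with 384 fragments (347 to 424), Igfbp4 with 293 (260 to 329), Gdf15 with 241 (212 to 273) and Fst with 237 (208 to 269). Of the 8 neighbouring pairs in this order, 3 had intervals that did not overlap: Igfbp1 above Lepr, Agt above Igfbp2, and Fgf21 above Igfbp4. In the other 5 pairs the intervals overlapped. This order depends on the reach, and for Igfbp1, Lepr and Gdf15 another gene was nearer to the strongest site. Within 10 kb 1 of the 9 (Igfbp1) kept its place, and the lowest strongest folds were those of Igfbp2, at 8.83 against 21.9, and Lepr, at 10.7 against 29.6.

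**Figure D2:**
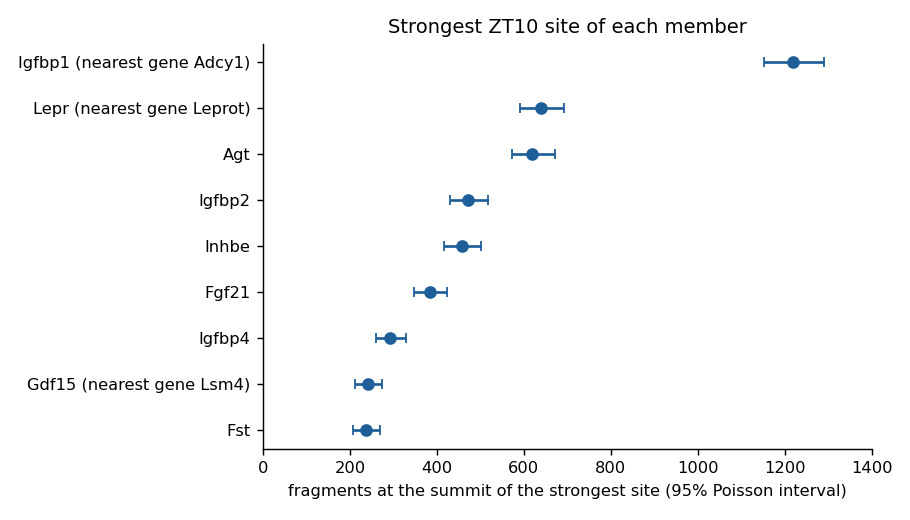
Fragments at the summit of the strongest ZT10 site within 50 kb of each gene (horizontal axis, from 0), with 95% Poisson intervals as bars. The Igfbp1 point at 1220 stands apart from the rest, which run from 237 to 640; labels name the nearest gene where it is another.

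**Figure D3:**
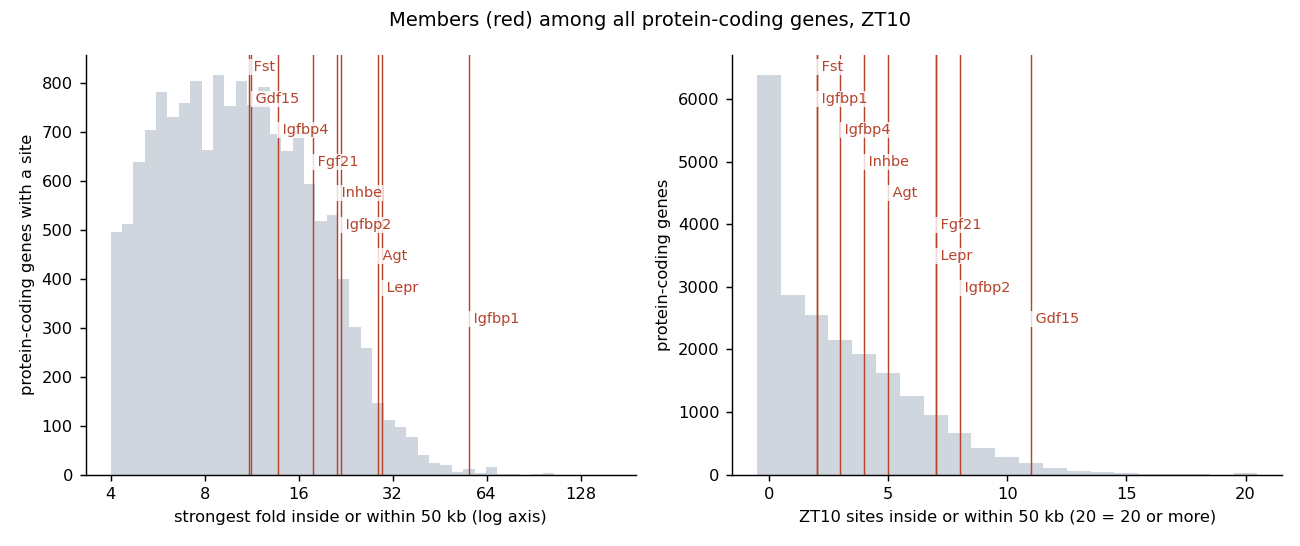
Left, the strongest fold within 50 kb (log axis) over the 15244 protein-coding genes with a ZT10 site; right, the number of sites over all 21631. Red lines are the 9 genes: their strongest folds run from 11.1 (Fst) to 56.2 (Igfbp1), and their numbers of sites from 2 to 11.

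Among the secreted hormones, Fgf21 (chromosome 7, 45613890 to 45615490, 1601 bp) had 7 sites. The site whose summit lay 100 bp before its start had a fold of 6.44 (136 fragments, 114 to 161). A stronger site, 2795 bp past the end of the gene, had a fold of 17.8 and spanned 4229 bp. The fold at the start was thus below the median of all ZT10 peaks, while the site past the end was at percentile 93.3 of them. Past the end there were 3 more, with folds of 8.88 at 16247 bp, 8.65 inside Bcat2, which encodes an aminotransferase of branched-chain amino acids, and 7.5 at 582 bp from Bcat2. Before the start, sites lay inside Izumo1 (fold 13.0) and Rasip1 (5.02). The site in Izumo1, a sperm protein gene, was 206 bp wide, close to the narrowest peak of the list (200 bp). Its local background was 5.0 against the lowest value of 4.14, and 3 of the 49 sites had a background above the lowest. Of all ZT10 peaks 438 were at most 300 bp wide, and 36 of these had a fold of 10 or more.

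Gdf15 (chromosome 8, 70629393 to 70632470) had the most sites of the 9, and its 11 sites put it at percentile 98 of all genes by number and 99.7 per 100 kb. A peak of 6216 bp covered both annotated starts, with its summit inside the gene, 1108 bp from the start of the span, and a fold of 11.2 (239 fragments, 210 to 271). This was the only site of the 11 nearer to Gdf15 than to another gene. The strongest site, in Lsm4 at 41032 bp before the start, had a fold of 11.3 (241 fragments, 212 to 273), a count whose interval overlaps that of the site inside Gdf15. Before the start there were 6 sites, 3 of them inside Pgpep1, a peptidase gene, with folds of 10.5, 5.29 and 9.33. Past the end there were 4, near Ssbp4 (4.19 and 4.37) and at or in Ell (4.79 and 7.04), all weaker than the site in Gdf15. The locus thus held many sites of middling fold and none of 20 or more.

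Inhbe (chromosome 10, 127349402 to 127351848) had 4 sites, and the strongest lay at its start. The summit was 344 bp before the start, with a fold of 21.2 (457 fragments, 416 to 501), under a peak 8879 bp wide that covered the whole gene. The next, in the neighbouring Inhbc, which encodes a related activin subunit, had a fold of 16.1 at 18398 bp. Weaker sites lay in R3hdm2 (6.76) and beside Mars1 (6.95). Agt (chromosome 8, 124556587 to 124569706) had 5 sites with a steep order. The strongest, 2336 bp before the start, had a fold of 28.7 (620 fragments, 572 to 671), under a peak 8982 bp wide that covered the start. It ranked 294 of 27929 ZT10 peaks by fold. The other 4 Agt sites, at 4.28 inside the gene, 5.2 and 7.08 in Capn9 and 4.88 in Cog2, were near or below the median of all peaks.

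Among the binding proteins, Igfbp1 (chromosome 11, 7197787 to 7202546) had 2 sites and both were strong. Igfbp1 is known as an insulin-repressed, fasting-induced liver gene. The summit 2833 bp before its start had a fold of 29.0 (627 fragments, 579 to 678). This peak, from 7186814 to 7200655, was 13842 bp wide, placed 109 of 27929 by width, and it covered the start. The other summit, 44872 bp before the start, lay inside Adcy1, which encodes an adenylate cyclase. It had a fold of 56.2 (1220 fragments, 1152 to 1290), the strongest near any of the 9 genes and 16th in the whole list. That site stands close to the limit of the reach, and with a reach of 10 kb the strongest Igfbp1 site was the one with 29.0.

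Igfbp2 (chromosome 1, 72824480 to 72852474) had 8 sites and was the nearest gene to 7 of them. The strong ones were remote: 14514 bp before the start with a fold of 21.9, and 32212 bp before it with a fold of 20.6. Their counts of 472 (430 to 517) and 445 (405 to 488) fragments had overlapping intervals. At the start itself, 282 bp before it, the fold was 7.77 (165 fragments, 141 to 192). Inside the gene 3 sites had folds of 4.37, 4.19 and 8.83, and another 2163 bp past the end had 4.83. The site in the neighbouring gene Igfbp5 had a fold of 16. A peak of fold 29.5 lay 51108 bp from Igfbp2, just outside the reach, and it was the nearest such site to any of the 9. The farthest site just inside the reach was 47892 bp from Gdf15, with a fold of 10.3.

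Igfbp4 (chromosome 11, 99040005 to 99052655) had 3 sites, all inside or past its end. Its strongest summit lay in the gene, 5098 bp from the start of the span, with a fold of 13.7 (293 fragments, 260 to 329) under a peak 8740 bp wide that covered the start. A peak 10217 bp past the end, nearer to Tns4, which encodes a tensin, had a fold of 13.1 (282 fragments, 250 to 317), and the intervals overlapped. A site of fold 4.88 lay 1374 bp past the end. Fst (chromosome 13, 114452262 to 114458989) had 2 sites, and no other protein-coding gene was nearer to either. The summit 4090 bp from its higher-coordinate end had a fold of 11.1 (237 fragments, 208 to 269), under a peak of 11123 bp that reached into the gene. A second site at 32019 bp had a fold of 4.97.

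The receptor gene Lepr (chromosome 4, 101717137 to 101815352) is the longest of the 9, and its 7 sites lay on the side of its start. Before the start there were 5 sites, with folds of 29.6 at 41162 bp, 12.1 at 33674 bp, 24.7 at 22337 bp, 7.18 at 11310 bp and 10.7 at 6482 bp. For the farthest pair Leprot, a neighbour whose product affects the surface display of the receptor, was nearer than Lepr. Inside the gene, sites with folds of 7.77 and 7.22 lay 24990 and 28606 bp from its start. The remainder of the 98216 bp span and the 50 kb past its end held none, and neither promoter window was covered. With a reach of 10 kb the strongest Lepr site had a fold of 10.7.

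Wide peaks recurred at these genes. Of the 49 sites 6 were at least 8 kb wide, near 5 of the 9 genes (Igfbp1 with both of its sites, Fst, Agt, Inhbe and Igfbp4), where 2.58% of all ZT10 peaks were that wide and 7.66% of protein-coding genes had such a peak within 50 kb. Wide peaks were also stronger in the list as a whole, with a median fold of 17.3 for those of at least 8 kb. The widest at Fst (11.1) and Igfbp4 (13.7) were below that median, and those at Agt (28.7), Igfbp1 (29.0) and Inhbe (21.2) were above it. The median width of the 49 sites was 2166 bp, against 1679 bp for all ZT10 peaks. At the other end, 20.4% of the 49 sites had a fold below 5, against 24.3% of all peaks.

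**Figure D4:**
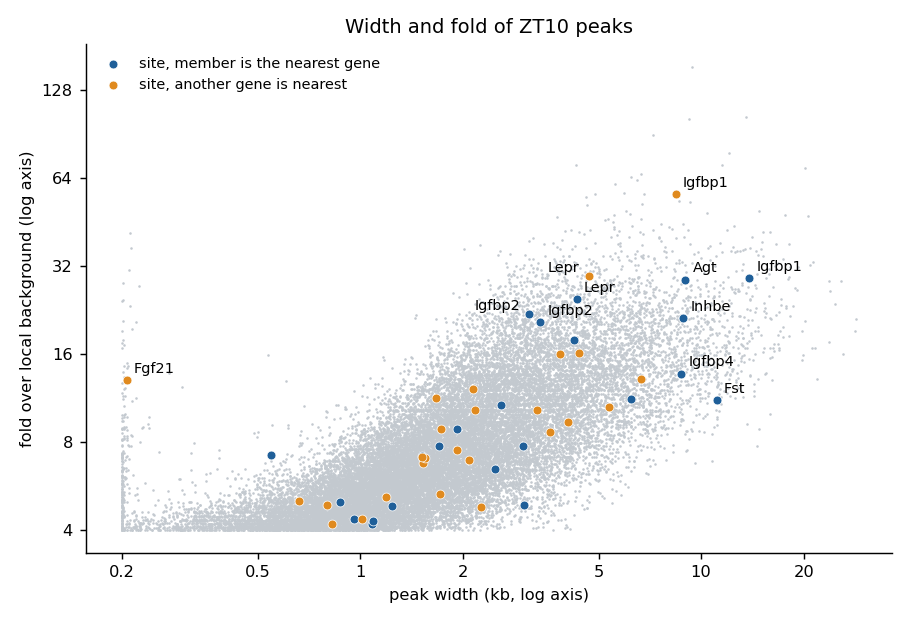
Width in kb (horizontal, log axis) and fold over local background (vertical, log axis) of all 27929 ZT10 peaks in grey, with the 49 sites in colour; blue sites have the named gene as nearest, orange ones another gene. The named points are those of fold 20 or more, of 8 kb or wider, or under 0.5 kb, and the Fgf21 point at the far left is the 206 bp peak in Izumo1.

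At ZT22 none of the 9 genes had a site, where 0.157% of protein-coding genes did (34 of 21631). The nearest ZT22 summit to any of them lay 9958043 bp from Igfbp4, and Fst, Inhbe, Gdf15 and Agt are on chromosomes with no ZT22 peak. The 8 sites of fold 20 or more at ZT10 included none that a ZT22 peak overlapped. Of all 1318 ZT10 peaks of that fold, 1.44% were overlapped at ZT22 by at least 1 bp, and of all ZT10 peaks 0.0859% were, with 0 of the 49 sites among them. The lowest fold listed at ZT22 was 4.08 and the lowest at ZT10 was 4.01, so weaker signal at ZT22 would not be listed. Nearly all genes had no ZT22 site, so its absence is not particular to these 9.

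Genes that act with the 9 were then described over the same 50 kb reach. In the IGF axis 14 of 15 had a ZT10 site, with a median strongest fold of 21, led by Irs2 (70.8, at 44599 bp), Igfbp6 (39.9, nearest to Csad) and Igfbp3 (29.0). Irs2 encodes an adaptor of the insulin and IGF receptors. The Igfbp3 value is the same peak as at Igfbp1, and that of Igfbp5 (21.9) is the Igfbp2 peak. Igf1, the main growth factor of this axis, had a fold of 22 inside the gene, and Stc2 had no site. Of the FGF21 axis 9 of 10 had a site (median 14.1), led by Fgf15 (26.6, nearest to LTO1), Fgf1 (22.3, inside the spans of both Fgf1 and Arhgap26) and Fgfr1 (18.2, nearest to Nsd3). The co-receptor gene Klb had 12 sites and a strongest fold of 16.4 inside the gene, and Fap, which encodes a protease that cleaves FGF21, had none.

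Of the activin axis 13 of 15 had a site (median 10.3), led by Acvr1b, a type I receptor gene (33.0, nearest to Nr4a1), Inhbc (21.2, the Inhbe peak) and Tgfbr3 (15.5), with none at Acvr1c and Inhbb. In the leptin axis 9 of 9 had one (median 19.9), led by Leprot (29.6, the peak before Lepr), Leprotl1 (25.6) and Ptpn1, a phosphatase of leptin and insulin signalling (24.2). The renin-angiotensin axis had one at 6 of 10 (median 13.6): Agtr1a, an angiotensin receptor gene, had 19.7 inside the gene, Enpep 16.8 and Ren1 14.8, the last nearest to Etnk2. For GDF15, its receptor gene Gfral had 1 site of fold 6.53, nearest to Hcrtr2, and the co-receptor gene Ret had none. Other hepatokine genes had one at 19 of 21 (median 14.8), led by Tsku (28.7), Angptl8 (24.8, nearest to Dock6) and the peak that Ahsg and Fetub share (19.3), with none at Gdf2 and Hgf. Each share can be read against the 70.5% of all protein-coding genes and each median against 10.0, and no ZT22 site was within 50 kb of any gene on these lists. A site of fold 20 or more was near 8 of 15 genes of the IGF axis and 4 of 9 of the leptin axis. It was near 2 of 10 in the FGF21 axis, 2 of 15 in the activin axis and 2 of 21 other hepatokine genes. The renin-angiotensin and GDF15 lists had 0.

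**Figure D5:**
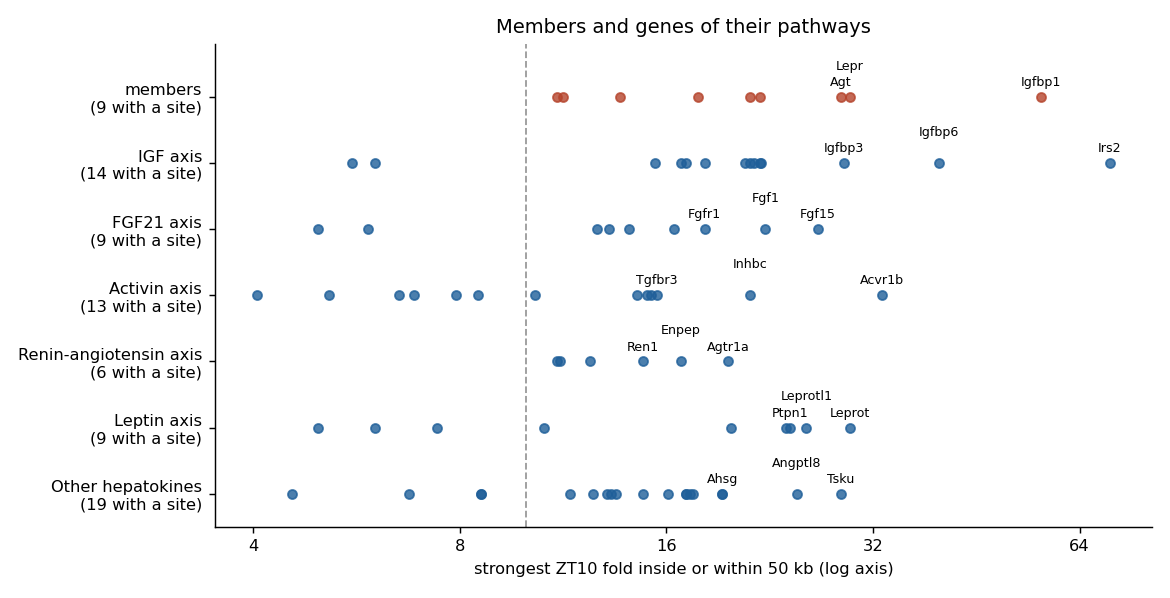
Strongest ZT10 fold within 50 kb (log axis) of each gene that has a site, for the 9 genes in red and 6 lists of related genes in blue; the dashed line is the median of all protein-coding genes with a site, 10.0. The 3 highest of each row are named, and Irs2 at 70.8 is the highest point.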

How the data were processed

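ChIP-seq was done with anti-HA beads on liver nuclei fixed with formaldehyde and EGS, and libraries were made with Tn5, per the labels' protocols. Per the submitters' processing notes the build was mm10 and the tools were MACS2 2.1.2, BWA 0.7.17, deepTools 3.3.0, SAMtools 1.9, Picard 2.18.12, cutadapt 2.3 and bcl2fastq 2.17, with no roles stated. The sources used here do not name the control library. The deposited fold enrichment is the authors' ratio of summit to local background. The deposited −log10 p and −log10 q are the authors' values per peak, and the deposited score, 10 times the −log10 q, was not used.

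Summits were set against RefSeq gene spans with Python 3.11.15 and pandas 2.3.3. Exon positions were not used here. Fragments came from fold and −log10 p, with a pseudocount of 1 in the fold: 87.1% of ZT10 peaks fitted a background of 4.14, and each of these gave a fragment count no more than 0.1 from a whole number, from 83 to 3321 (median 145). The solution was tested on data simulated with the same formulas, which checks the calculation and not the formulas. The simulated peaks that were scored had a −log10 p below that of the strongest site near Igfbp1. Percentiles and ranks of peaks are places in the ZT10 list, and percentiles of site numbers are over all protein-coding genes.

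The 9 genes, the related lists and the rule for named genes (all sites of the 9, the 3 strongest of each list, and those without a site where 5 or fewer lack one) were chosen with earlier results of these data known. Some genes are named beyond that rule for their role (Igf1, Klb) or because their strongest peak is a site of the 9 (Igfbp5), chosen after their values were seen. The genes of the renin-angiotensin list without a site are not named, since 1 item is not reported here. The list of other hepatokines had 22 names, of which Bmp9 is a synonym of Gdf2 and was counted once. No test was made, since each time is 1 pooled list.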

Additional observations from a re-analysis of the deposited data

How the results depend on the processing

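No paired analysis was possible because each time has a single list, made from all 4 of its samples together. Leaving out each replicate and a replicate block were not run for the same reason. Limits are those of a single pooled list: no replicate spread, no signal below a fold of about 4, and 1 summit per peak, so wide peaks may hold more maxima than are counted. Each of the 9 genes had a site under every alternative but 2: with a reach of 2 kb 7 had one, and with summits inside the span only 5 did. The number of sites was 19 at a reach of 10 kb, 12 at 2 kb, 89 at 100 kb, 8 inside spans and 23 with the nearest gene only, against 49. The median strongest fold, with 0 for a gene without a site, was 13.7 at 10 kb, 7.77 at 2 kb and 4.28 inside spans, against 21.2. The share of all protein-coding genes with a site was 54.5% at 10 kb, 47.1% at 2 kb, 78.6% at 100 kb, 36.2% inside spans, 63.8% with a −log10 q of at least 10, 56.6% with a fold of at least 6 and 46.4% with the nearest gene only, against 70.5%. These alternatives search fewer or more bases, or drop peaks, by construction. No ZT22 site was found at 100 kb or by interval overlap. The order by strength was the same for 9 of 9 by −log10 q and by fragments. The 9 strongest sites share a background of 4.14, so both orders follow from the fold and are no check on it. Within 10 kb 1 kept its place, an alternative added after seeing the data. In the order by number of sites 3 kept their place per 100 kb. Windows with a motif numbered 0 for the hexamer after AANT, 0 for its spaced repeat and 3 for CACGTG, against 1 for AGGTCA. Of 75 strongest folds of single genes under alternatives, 58 stayed within their counting interval and 17 did not. The limits on −log10 q and on fold, and 1 row per distinct interval, could not remove a strongest site, and 0 moved in each. Genes left without a site are not among the 75: 2 at a reach of 2 kb and 4 inside spans.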
